A study of Medicago truncatula with 14 samples.

Results

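Dense LSH1 clusters are stretches of the Medicago truncatula chromosomes in which many binding regions of LSH1 lie close together. The 4 LSH1 peak lists were merged wherever peaks overlapped by at least 1 bp, and a merged stretch with peaks in at least 2 lists on chromosomes 1 to 8 was called a region. Each region was assigned by its midpoint to a fixed 50 kb bin, counted from position 0. Bins with 8 or more regions were called dense, and all their regions are members. This gave 2604 member regions out of 16700 (15.6%) in 282 dense bins out of 8524 (3.31%). The bins were chosen by their number of LSH1 regions, so that number is a description here and was not tested.

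DNA bound by each protein was recovered by chromatin immunoprecipitation and sequenced. The material was hairy roots, which grow from tissue transformed by Agrobacterium rhizogenes, of ecotype jemalong, cultivar Jester, grown for 3 weeks without rhizobia on medium with 0.5 mM ammonium nitrate. The roots carried GFP fusions of LSH1 or NIN driven by LjUBI, a ubiquitin promoter of Lotus japonicus, and not by the genes' own promoters. There were 4 LSH1 immunoprecipitations and 3 of NIN, each with a control library of the same replicate number, 14 libraries in all. The labels give the controls the genotype of the immunoprecipitations, while their protocol also names a construct of GFP with a nuclear localisation signal as control, so the material of the control libraries is not settled here. Each list was called from 1 immunoprecipitation and its control. The LSH1 lists held 18750 to 25127 peaks and the NIN lists 14021, 28825 and 84178. NIN replicate 3 stands apart by its length, and every NIN result is given by list. The lists carry no read numbers, and sequencing depth is therefore unknown. Nothing in the labels says that replicates came from separate cultures, so p-values below measure the spread of these lists alone, and that spread may be technical.

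LSH1 belongs to the LIGHT SENSITIVE SHORT HYPOCOTYL proteins, the ALOG family of plant transcriptional regulators, which carry a plant-specific DNA-binding domain and act at organ boundaries and in meristems. NIN (NODULE INCEPTION) is an RWP-RK transcription factor needed for rhizobial infection and nodule formation in legumes. Sites of plant transcription factors can lie at the start of a gene, within it or far out in the intergenic DNA, and a gene can have several of them. The study searched for the binding sites of both proteins.

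LSH1 regions were unevenly spread. A 50 kb bin held 1.96 regions on average, and the variance over bins was 2.74 times the mean. If the regions of each chromosome were placed uniformly and independently along it, the binomial formula gives 12.6 bins with 8 or more regions, against the 282 found. It also gives 1356 bins without a region, against 3051. Crowded and empty bins were thus both more frequent than under even placement. The fullest bin held 17 regions, 21 bins held 12 or more, and the median dense bin held 9.

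**Figure D1:**
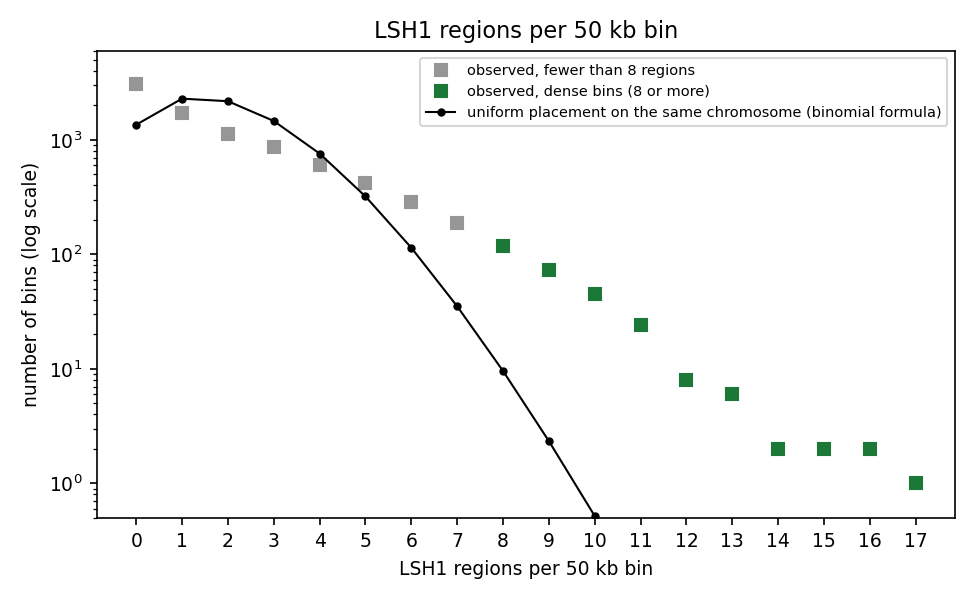
Number of 50 kb bins (log scale) by the number of LSH1 regions they hold; squares are observed bins, green for dense bins, and black points and line are the binomial formula for uniform placement on the same chromosome. From 5 regions per bin upwards the observed bins outnumber the formula, and the fullest bin holds 17 regions.

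The 189 bins with exactly 7 regions had 4.45 coding genes and 8.47, 7.36, 6.13 and 7.33 peaks of LSH1 replicates 1 to 4 on average. The 119 bins with exactly 8 regions had 4.71 coding genes and 9.61, 8.39, 7.01 and 8.64 peaks. The peak numbers follow from the threshold itself and are given only as a description of the bins on either side of it.

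Dense bins lay in stretches with more LSH1 regions than the average. Bins up to 1 Mb to each side of a dense bin, other dense bins among them, held 3.57 regions on average, compared with 1.96 over all bins. What part of the unevenness was regional was not tested. When each bin's expected number was taken from the bins up to 1 Mb around it, a Poisson formula gave 121 dense bins, and the 282 found were 2.34 times as many. The median dense bin held 2.52 times the mean of its surroundings. Dense bins were mostly single: 251 stood alone, 14 pairs were adjacent, and 1 run held 3.

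**Figure D2:**
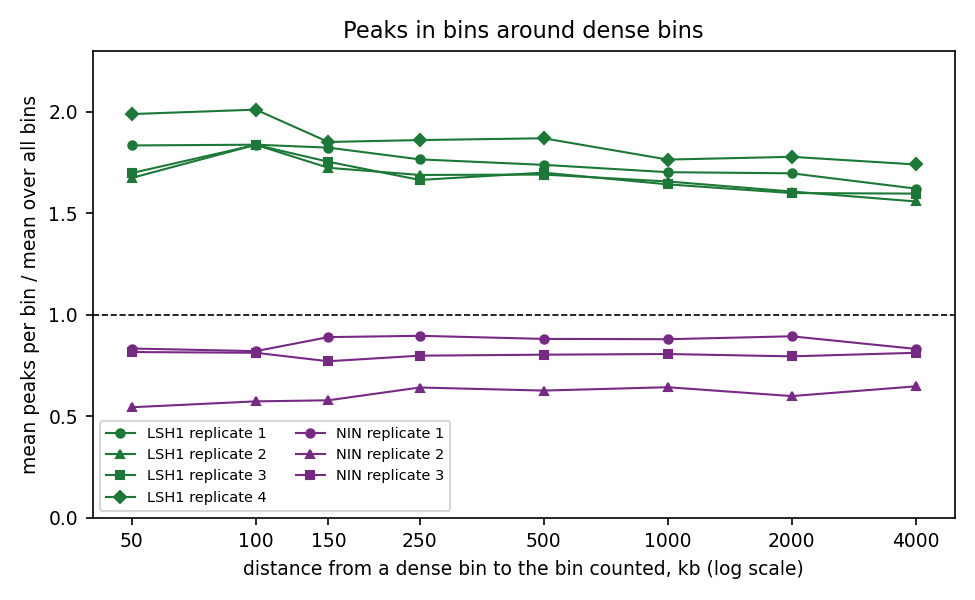
Mean peaks per bin at 50 to 4000 kb from a dense bin, divided by the list's mean over all bins, for the 4 LSH1 lists (green) and 3 NIN lists (purple); the dashed line is the mean over all bins. Other dense bins at these distances are counted. LSH1 lists lie between 1.67 and 1.99 at 50 kb and still between 1.56 and 1.74 at 4000 kb, while all NIN lists stay below 1.

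The surroundings of dense bins were rich in LSH1 peaks over long distances. At 50 kb from a dense bin the 4 LSH1 lists had 1.83, 1.67, 1.70 and 1.99 times their mean number of peaks per bin. At 4000 kb the values were 1.62, 1.56, 1.60 and 1.74. Other dense bins are counted here: they made up 5.67% of bins at 50 kb and 8.70% at 4000 kb, against 3.31% of all bins. With dense bins left out, bins up to 1 Mb away held 82.3, 70.5, 61.2 and 70.6 LSH1 peaks per Mb in replicates 1 to 4. Bins further off held 30.3, 27.3, 22.9 and 21.7. With other dense bins counted, a raised level in all 4 lists reached several megabases. It went with the place on the chromosome: 5.09% of bins at 0 to 10% of the chromosome length from the nearer end were dense, 5.92% at 10 to 20%, 3.64% at 20 to 30%, 1.35% at 30 to 40% and 0.528% in the middle of the chromosomes (40 to 50%). Coding genes fell along the same steps, from 4.52 to 2.88 per bin. Gene density and position move together here, and their part in the number of dense bins was not tested.

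Chromosome 1 held 62 dense bins, 5.47% of its bins, and chromosome 6 only 2, or 0.233%. The other chromosomes had 42 (chromosome 3), 43 (chromosome 4), 42 (chromosome 8), 36 (chromosome 7), 35 (chromosome 2) and 20 (chromosome 5). Chromosome 5 has 42.6 LSH1 regions per Mb, close to the 43.1 of chromosome 4 and the 42.9 of chromosome 8, yet 9.33% of its regions were members, against 14.4% and 18.3%. Chromosome 6 has 15.8 regions per Mb and 57.3 coding genes per Mb, the lowest of the 8 chromosomes on both counts. Its dense bins lay at 12650001 to 12700000, with 13 regions, and at 41800001 to 41850000, with 9.

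Whether a crowded stretch recurs can be asked of a list that had no part in choosing it. Dense bins were chosen from 3 LSH1 lists at a time, and the peaks of the left-out list were counted. Without replicates 1, 2, 3 and 4 there were 86, 105, 150 and 124 dense bins. The left-out lists had 3.92%, 4.68%, 6.43% and 6.14% of their peaks in them. The bins make up 1.01%, 1.23%, 1.76% and 1.46% of the chromosome length, so the left-out lists were denser there by 3.88, 3.80, 3.65 and 4.22 times, a mean of 3.89 ± 0.240 (SD, n = 4). The dense bins held 11.4, 9.76, 8.03 and 10.3 peaks of the left-out list on average, against 2.86, 2.48, 2.09 and 2.32 in other bins. Each of these dense bins held at least 3 peaks of the list that had not chosen it, a minimum near the mean of other bins.

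NIN lists went the other way in the same bins. Averaged over the 4 choices of bins, NIN replicates 1, 2 and 3 had 0.689, 0.339 and 0.705 times the peaks that the length of the bins would hold. LSH1 and NIN lists did not overlap, and the difference was 2.82 on the log2 scale, a 7.08-fold ratio. The two-sided exact permutation test over 35 splits of the lists gave p = 0.0286, the smallest it can give. With Benjamini-Hochberg adjustment over the 10 tests made here the exact p was 0.208, so the result does not pass the correction; the other 9 tests cannot go below 0.13 (4 lists) or 0.25 (3 lists). The 4 choices of bins share lists, so the 4 LSH1 values are not fully independent. Bins were also chosen from LSH1 lists only, so LSH1 and NIN lists are not exchangeable, and this p does not measure a difference between the proteins. The values show only that LSH1 lists recur in each other's dense bins more than NIN lists do.

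Against their own surroundings the contrast was smaller. Compared with other bins up to 1 Mb away, the left-out LSH1 lists were 2.43, 2.44, 2.40 and 2.58 times as dense in the bins chosen without them. In those bins NIN replicate 1 had 0.709 to 0.767, NIN replicate 2 had 0.446 to 0.516, and NIN replicate 3 had 0.826 to 0.884 times the peak density of the surroundings. The LSH1 lists were thus above their surroundings in every choice of bins, and the NIN lists below.

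**Figure D3:**
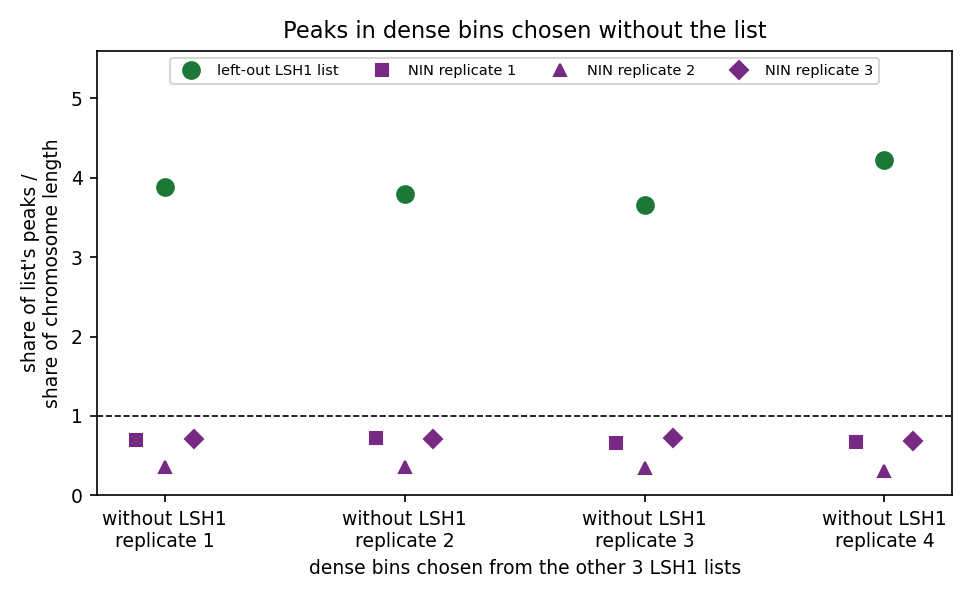
Share of a list's peaks in dense bins divided by the bins' share of chromosome length, for 4 sets of dense bins, each chosen from 3 LSH1 lists; green circles are the LSH1 list left out, purple symbols the 3 NIN lists, and the dashed line marks an even spread. The left-out lists lie between 3.65 and 4.22 and the NIN lists between 0.308 and 0.726.

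The number of dense bins rested on having 4 lists. Of the 282 bins, 71 were dense only with all 4 lists, and 42 were dense without each list in turn; the 10 densest bins were all among these 42. With fewer lists, fewer stretches can have peaks in 2 of them. Members were in 2, 3 and 4 lists in 1144, 668 and 792 cases. Regions in all 4 lists made up 30.4% of members and 27.2% of the other 14096 regions. The rule chose bins on the same lists, so this difference was not tested. With regions required in at least 3 lists, 20 bins stayed at 8 or more.

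Within a dense bin the regions were spread over most of the 50 kb. Their midpoints spanned a median of 38.7 kb, with a range of 16.8 to 50.0 kb. Neighbouring midpoints lay a median of 2611 bp apart, with quartiles of 1420 and 5869 bp. Up to 500 bp separated the edges in 503 of 2322 neighbouring pairs (21.7%), and with peaks up to 500 bp apart merged there were 176 dense bins. The most regions within 10 kb was 4 in the median bin, 6 or more in 58 bins, and 8 at the highest. Whether this differs from an even spread within the bin was not tested.

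The median width of member regions was 615 bp, against 573 bp for other regions. Regions of 2000 bp or wider made up 2.19% of members (57 of 2604) and 1.48% of the others (208 of 14096). By list, the median peak of members was 432.5, 455, 362 and 386 bp wide in replicates 1 to 4, against 403, 433, 350 and 372 bp in other regions. Peaks of members were wider in 4 of 4 lists, by 19.4 bp ± 8.01 (SD, n = 4; exact sign-flip p = 0.13, the smallest for 4 lists, adjusted p = 0.208). The lists give a running number per peak, read here as a rank and expressed as a percentage of the list, so that low values come first. The median place of member peaks was 33.8%, 33.5%, 35.5% and 36.8%, against 34.3%, 35.6%, 37.1% and 36.8% for peaks of other regions (exact sign-flip p = 0.13, adjusted p = 0.208). Among the first 20% of their list were 32.2% ± 1.33 of member peaks and 31.8% ± 0.707 of the others (SD, n = 4; exact sign-flip p = 0.5). By the median, member peaks were a little earlier in each list, with differences of -2.09 to -0.0361 percentage points. Members were chosen from the peaks of these same lists. The p-values for width and place are therefore no independent support, and the differences are given as a description.

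Dense bins had more coding genes than the average bin but no more than moderately filled ones. They held 4.53 coding genes on average (median 4, range 1 to 10), against 3.69 in all other bins, a ratio of 1.23. Bins with 4 to 7 regions had 4.71, bins with 1 to 3 regions 4.15, and bins without a region 2.65. None of the 565 bins without a coding gene was dense. Of bins with 1 to 2 genes 1.56% were dense, of those with 3 to 4 genes 3.83%, of those with 5 to 6 genes 4.50%, of those with 7 to 8 genes 4.63%, and of the 81 bins with 9 or more genes 3.70% (3 bins). Coding genes covered a median of 31.7% of a dense bin and 36.1% of a bin with 4 to 7 regions.

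Member regions had a smaller share inside genes than other LSH1 regions in 4 of 4 lists. By list, 29.2%, 30.5%, 30.5% and 31.1% of member peaks had their midpoint inside a coding gene, against 35.1%, 36.0%, 36.3% and 38.3% of the peaks of other regions. Over 2000 bp from any coding gene lay 37.6%, 36.5%, 39.0% and 35.8% of member peaks and 31.9%, 30.9%, 32.3% and 30.3% of the others. The groups did not overlap in either measure. Members minus others gave -6.10 percentage points ± 0.776 inside genes and 5.91 ± 0.580 far from genes (SD, n = 4; exact sign-flip p = 0.13 for each, adjusted p = 0.208). Up to 2000 bp outside genes the shares were 32.5% ± 1.30 and 32.3% ± 0.986 (SD, n = 4), a difference within the spread of the lists (exact sign-flip p = 0.875).

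**Figure D4:**
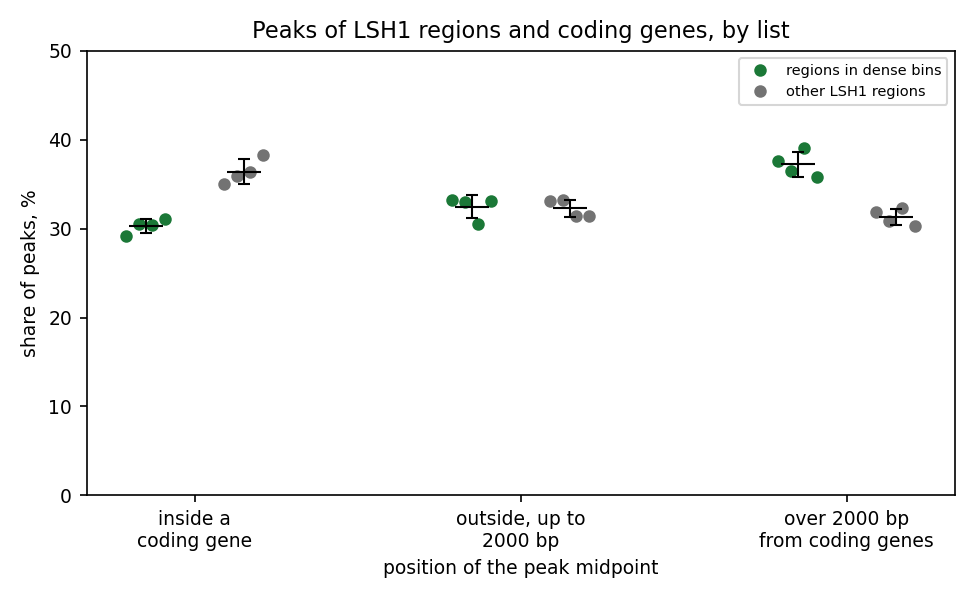
Share of peaks (%) by position of the midpoint, for peaks of regions in dense bins (green) and of other LSH1 regions (grey); each point is 1 LSH1 list, and bars are mean ± SD over 4 lists. Members are lower inside coding genes (30.3% against 36.4%) and higher over 2000 bp away (37.2% against 31.3%).

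In dense bins the regions followed the available length closely. Genes made up 32.1% of the length and held 30.3% of the member regions. The 2000 bp flanks made up 28.6% and held 31.5%, and the DNA further out made up 39.3% and held 38.2%. That is 174, 204 and 179 regions per Mb in the 3 compartments. In all other bins the values were 41.9 inside genes, 47.4 in the flanks and 23.0 further out. Bins with 4 to 7 regions were level as well, with 101, 110 and 93.9 regions per Mb. The gap between genes and distant DNA seen over all other bins was small in bins with 4 to 7 regions and absent in dense bins. All other bins include the 3051 bins without a region, of which coding genes covered a median of 18.7%. These add gene-poor length and no regions, so part of the gap follows from sorting bins by their region number.

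Over all LSH1 peaks, the share at gene ends differed between dense and other bins by less than the spread of the lists. Within windows from 2000 bp outside to 500 bp inside a gene end lay 45.8%, 47.5%, 43.3% and 45.3% of all LSH1 peaks in dense bins in replicates 1 to 4, and 46.3%, 48.5%, 43.1% and 44.2% of those in other bins. The mean difference was -0.0370 percentage points ± 0.884 (SD, n = 4; two-sided exact sign-flip p = 1, adjusted p = 1). Replicates 1 and 2 were lower in dense bins and replicates 3 and 4 higher. When only peaks of regions were counted, 48.3%, 48.8%, 45.7% and 48.4% of member peaks lay in these windows, against 50.1%, 51.3%, 47.9% and 49.3% of the peaks of other regions. Members were lower in 4 of 4 lists, with a difference of -1.85 percentage points ± 0.687 (SD, n = 4; exact sign-flip p = 0.13, adjusted p = 0.208). When the window was the whole gene plus 3000 bp of each flank, the share was lower in dense bins by a mean of -4.36 percentage points (exact sign-flip p = 0.13), and with dense bins chosen without replicate 1 the gene-end difference was 2.66 (exact sign-flip p = 0.25).

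All 3 NIN lists had a lower peak density in dense bins than in all other bins together, but this was not particular to dense bins. Dense bins held 1.27, 1.45 and 7.30 peaks of NIN replicates 1, 2 and 3 on average. Bins with exactly 7 LSH1 regions held 1.29, 1.43 and 7.05, and bins without a region 1.60, 4.36 and 11.6. NIN replicates 1, 2 and 3 had 25.5, 28.9 and 146 peaks per Mb in dense bins and 33.2, 68.9 and 198 in all other bins, ratios of 0.768, 0.420 and 0.738. The mean was -0.69 ± 0.49 on the log2 scale (SD, n = 3; two-sided exact sign-flip p = 0.25, the smallest for 3 lists, adjusted p = 0.357). Compared only with other bins up to 1 Mb away, the ratios were 0.797, 0.572 and 0.892, so all 3 lists stayed below 1. Of the member regions, 2.38%, 2.15% and 13.3% overlapped a peak of NIN replicates 1, 2 and 3. Of the other LSH1 regions 3.68%, 3.82% and 15.0% did.

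The densest bin, on chromosome 2 at 4050001 to 4100000, held 17 regions, 5 of them in all 4 lists. Its LSH1 peaks numbered 15, 18, 10 and 15 in replicates 1 to 4, and its NIN peaks 0, 1 and 5. The bin has 4 coding genes, which cover 14.0% of it, and LOC11441268 had the most regions in its body and 2000 bp flanks, namely 4. The best-placed region (4053359 to 4054454, mean place 6.27% over 4 lists) overlapped LOC11442909. Products are not annotated in the gene table, so genes known only by a LOC number are given without a role.

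The second bin had few genes. On chromosome 4 at 44100001 to 44150000 there were 16 regions, 7 of them in all 4 lists, with 19, 15, 16 and 14 LSH1 peaks. Only 2 coding genes, LOC11429521 and LOC11434572, lie in the bin, and 11 of the 16 regions were over 2000 bp from any coding gene. The best-placed region (44126309 to 44127273, mean place 3.73%) was 12627 bp from LOC11434572.

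On chromosome 7 at 52650001 to 52700000 there were also 16 regions, 7 of them in all 4 lists, with 19, 13, 15 and 20 LSH1 peaks. No NIN list had a peak in this bin. A region 2648 bp wide (52675131 to 52677778, mean place 9.28%) overlapped LOC11432050, and the best-placed one (52678129 to 52679077, mean place 2.10%) lay 348 bp from the same gene. The bin that follows held 9 regions, so this pair of dense bins is adjacent.

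The fourth bin, on chromosome 8 at 38700001 to 38750000, held 15 regions, 6 in all 4 lists, with 17, 14, 17 and 18 LSH1 peaks. Its 2 coding genes, LOC25501749 and LOC25501750, cover 7.16% of it, and 12 of the regions lay over 2000 bp from any coding gene. The best-placed region (38709787 to 38711363, mean place 1.57%) overlapped LOC25501749. A region 2879 bp wide (38723905 to 38726783, mean place 13.6%) overlapped LOC25501750.

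The fifth bin differed in its gene content. On chromosome 2 at 7800001 to 7850000 it held 15 regions, of which 2 were in all 4 lists, with 13, 13, 16 and 10 LSH1 peaks. It has 6 coding genes of similar length, 1476 to 1586 bp, and a stretch of 19593 bp between 2 neighbouring midpoints had no region. LOC25486104 had 4 regions within 2000 bp, LOC25486097 and LOC25486103 had 3 each, and LOC25486101 and LOC25486102 had 0.

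The other 5 of the 10 densest bins held 14, 14, 13, 13 and 13 regions. They lay on chromosome 8 (44900001 to 44950000), chromosome 1 (44700001 to 44750000 and 50500001 to 50550000), chromosome 2 (8400001 to 8450000) and chromosome 6 (12650001 to 12700000). The coding genes with the most regions in them and their 2000 bp flanks were LOC25502043 with 5, LOC25484850 with 3, LOC25485190 with 2, LOC25486189 with 3 and LOC120580914 with 2; in the bins of LOC25485190 and LOC120580914 other genes also had 2, and the gene with the best-placed regions is named. In the bin of LOC25484850 no midpoint lay inside a coding gene and 11 of 14 regions were over 2000 bp away. In the bin of LOC25486189, which has 8 coding genes, the midpoints of 12 of 13 regions lay in the 2000 bp flanks of a coding gene. For 1 of them, at the edge of the bin, the nearest gene was LOC25486184, which is not among the 8. Clusters of like size thus sat in bins with 2 and in bins with 8 coding genes. By length, coding genes covered 7.16% to 34.6% of the 10 densest bins. Only the bin at 50500001 to 50550000 (34.6%) was above the median of 30.1% over all bins.

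The best-placed members found in all 4 lists were not in the fullest bins. First came a region of 4076 bp on chromosome 8 (40168196 to 40172271, mean place 0.0274%), which overlapped LOC112417027 in a bin of 9 regions. Second was one of 2743 bp on chromosome 1 (49518064 to 49520806, mean place 0.0822%), 2227 bp from LOC11422839 in a bin of 11. The third (chromosome 7, 48876812 to 48878459, mean place 0.111%) lay 446 bp from LOC25499388 in a bin of 9. These places follow from the LSH1 lists themselves and are given as a description.

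Dense bins held 1278 of 31728 coding genes (4.03%) by gene midpoint. Of these, 927 (72.5%) had at least 1 region in the gene or its 2000 bp flanks, 216 (16.9%) had 3 or more, and 351 had none. Of all coding genes, 29.1% had at least 1 region and 700 (2.21%) had 3 or more. The dense bins were chosen for their regions, so higher shares there follow from the choice. A gene in a dense bin is therefore not by itself a gene with LSH1 regions at it. The most regions, 11, were at LOC11408536 on chromosome 7, of which 10 lay within the gene; it is 64724 bp long. LOC25502277 on chromosome 8, 28293 bp long, followed with 9. LOC25489425 on chromosome 3 had 6 regions with a length of 5394 bp.

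Genes with a known role could be found only by symbol or synonym. Of 62 names in lists of nodulation signalling, boundary and meristem, hormone, and nodulin genes, 27 genes were matched, and 3 of these (11.1%) lay in a dense bin, against 4.03% of all coding genes. They were 1 of 14 nodulation signalling genes (ERN1), 1 of 2 boundary genes (NOOT1, but not NOOT2) and 1 of 6 genes in the hormone list (DELLA2). None of 8 leghemoglobins and nodulins did. ENOD11, ENOD12 and ENOD20 count both as nodulation signalling genes and as nodulins. The hormone and nodulin lists hold only genes found in the gene table. The hormone list includes NGR, for which no hormone role is shown here. The median bin of the matched genes held 2 LSH1 regions, as did the median bin of all coding genes. Of all 77 coding genes with a name in the gene table, 6 (7.79%) lay in dense bins. Beside the 3 above these were CAD1, CYP72A67 and CYP81E7, which were picked out after their positions had been seen.

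NOOT1 (LOC11417633), a BTB-ankyrin co-regulator that maintains nodule identity, lay in a dense bin at the threshold (chromosome 7, 42200001 to 42250000) with 8 regions, 3 of them in all 4 lists. The bin had 8, 7, 9 and 8 LSH1 peaks in replicates 1 to 4, and 1, 2 and 11 peaks in the NIN lists. A single region (42203427 to 42204208, in 3 lists, mean place 40.4%) overlapped the gene. The best-placed region of the bin (42217345 to 42218513, in 4 lists, mean place 2.97%) overlapped another gene, LOC11422204, 10074 bp from NOOT1. The bin before it held 7 regions, so that the cluster continued beyond the edge. NOOT2, the paralog, lay in a bin of 3 regions.

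At DELLA2 (LOC120577405), a repressor of the gibberellin response, the cluster began at the gene. Its bin (chromosome 8, 37950001 to 38000000) held 9 regions, 4 in all 4 lists, with 13, 11, 12 and 11 LSH1 peaks and 1, 0 and 11 NIN peaks. A region of 2093 bp (37952578 to 37954670, mean place 16.2%) overlapped the gene, and another of 1831 bp (37954830 to 37956660, mean place 2.84%) lay 1064 bp from it. Beyond these, 6 of the 9 regions were over 2000 bp from any coding gene, in a bin with only 2 of them. DELLA1, the related repressor, lay in a bin of 6 regions.

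ERN1 (LOC11437275), an ERF transcription factor needed for rhizobial infection, lay in a dense bin without a region at the gene. The bin (chromosome 7, 40000001 to 40050000) held 8 regions, of which 1 was in all 4 lists, with 9, 7, 5 and 5 LSH1 peaks. No region had its midpoint in ERN1 or within 2000 bp of it. The nearest of the bin (40041144 to 40041808, in 2 lists, mean place 35.0%) was 2746 bp away and nearer to LOC11436838. The region in 4 lists (40015810 to 40016798, mean place 12.7%) overlapped LOC11437552.

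CAD1 (LOC25485411), a cinnamyl alcohol dehydrogenase of lignin synthesis, had 3 of the 8 regions of its bin (chromosome 1, 52400001 to 52450000), which held 11, 9, 8 and 13 LSH1 peaks. The first of them (52401907 to 52403018, in 4 lists) had a mean place of 0.694%. CYP81E7 (LOC25493449), a cytochrome P450 that hydroxylates isoflavones, had 3 regions in the gene and its 2000 bp flanks among the 13 of its bin (chromosome 4, 46850001 to 46900000), which held 12, 10, 10 and 14 LSH1 peaks. One of them (46858299 to 46859719, mean place 2.54%) was found in all 4 lists. CYP72A67 (LOC25486186), a cytochrome P450 of saponin synthesis, shared the bin of LOC25486189 with 13, 13, 10 and 10 LSH1 peaks. It had 1 of the 13 regions within 2000 bp, and the cluster lay mostly at its neighbours.

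**Figure D5:**
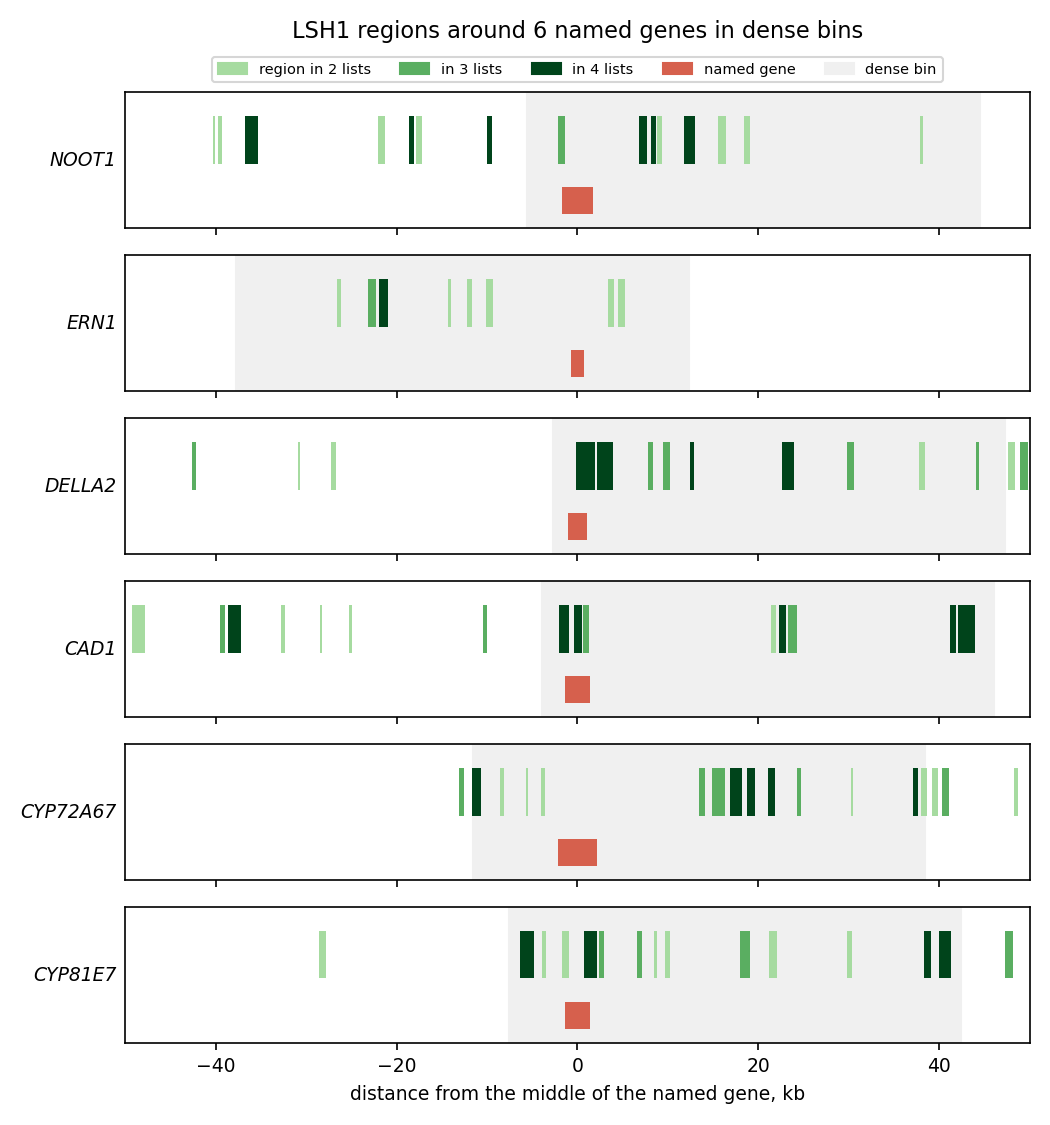
LSH1 regions (green, darker with more lists) around 6 named genes (red), by distance in kb from the middle of the gene; grey marks the dense bin. Regions overlap NOOT1, DELLA2, CAD1 and CYP81E7, while the nearest region to ERN1 is 2746 bp away and CYP72A67 has 1 region within 2000 bp.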

How the data were processed

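The tools named in the submitters' processing notes are MACS2, Bowtie2, ChIPseeker and Picard; per the list names, narrow peaks were called at a q cutoff of 0.05. For versions, other settings and the genome build, the sources used here give nothing. The authors called 1 list per replicate and deposited sequence name, start, end and a running number, with no height, fold, score or q-value. Members and gene lists were chosen with earlier results of these data known.

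Gene positions were taken from RefSeq's table for MtrunA17r5.0-ANR (39590 genes, 31728 coding on the 8 chromosomes), which has no strand or product. Of the LSH1 regions, 28.0% lay within 500 bp of a coding gene end, and 16.8% and 16.9% after the genes were moved by 20000 bp to either side, and the lists were set against the table on that basis. Printed coordinates are those of the lists, 1-based; none is from the table. Chromosome length is the last peak or gene end. Motifs and genome sequence were not analysed here.

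Python 3.11.15, numpy 2.4.6, pandas 2.3.3 and scipy 1.17.1 were used. The merging and binning were tested on simulated lists with planted clusters, which they recovered. The planted clusters lay above the threshold on a uniform background, so the regional unevenness of the real lists was not covered. Tests over lists were exact permutation and sign-flip tests, two-sided, adjusted after Benjamini and Hochberg over 10 tests. Expected bin numbers came from binomial and Poisson formulas, with no p-value. In the 10 densest bins, the gene with the most region midpoints within 2000 bp was named. Genes of the nodulation, boundary, hormone and nodulin lists were named in all dense bins. Alternatives were other list minimums, thresholds, bin grids, merging distances, overlaps, list lengths, widths, distances to rRNA genes, gene windows and left-out lists.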

Additional observations from a re-analysis of the deposited data

Results flagged for a closer look

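Of 11 measures compared over the 4 LSH1 lists, 0 had a list far from the others; groups of 3 lists were not examined. In dense bins chosen without the list counted, the log2 fold over an even spread was higher by 2.82 in LSH1 than in NIN lists. The values did not overlap (two-sided exact permutation p = 0.0286, adjusted p = 0.208 over 10 tests). Only LSH1 lists chose bins, so the lists are not exchangeable, and this p does not measure a difference between the proteins.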

How the results depend on the processing

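The number of dense bins depends on the definition. It was 20 (177 members) with regions in at least 3 lists, 0 (0 members) with regions in all 4 lists, 760 (5661) with 6 or more regions per bin, 90 (995) with 10 or more, 40 (709) with 100 kb bins and 16 or more regions, 176 (1540) with peaks up to 500 bp apart merged and 12 (102) with the first 10000 peaks of each list. Leaving out 1 LSH1 list gave 86 to 150 bins and 753 to 1335 members. Bins that start at 25 kb, an overlap of 50% of the smaller peak and no regions over 2000 bp gave numbers within 1.5 times the main ones. Leaving out regions near rRNA genes removed no member and left every result as in the main setting, so this setting was no check.

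The difference between left-out LSH1 lists and NIN lists was 2.41 to 4.36 on the log2 scale in 9 settings. These were the settings that redefined dense bins and could give a value. The exact permutation p was 0.0286 in each, under the same limit that only LSH1 lists chose bins. With 3 or 4 lists required no value could be had, since a NIN list then had no peak in a set of bins or no bin was left. Without single LSH1 or NIN lists it was 2.48 to 3.01 (exact permutation p = 0.0667 to 0.1, the smallest possible there). With LSH1 and NIN lists paired by number (replicate block) it was 2.78 (exact sign-flip p = 0.25, the smallest for 3 pairs). The labels state no culture or day that same-numbered lists share. Deviations of same-numbered lists over bins correlated with r = 0.0213, -0.0399 and -0.0366, so the numbers were not taken to pair the lists.

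NIN density in dense bins stayed lower in all 18 alternatives run. The gene-end difference, near 0 in the main setting, reversed to 3.26 percentage points with 3 lists required and to 0.0334 with windows of 1000 bp; without single lists it was -1.24 to 2.66. The cause was not tested. The ratio of coding genes in dense and other bins was 1.14 with 3 lists required, 1.18 with 10 or more regions, 1.19 with peaks 500 bp apart merged, 1.03 with the first 10000 peaks and 1.15 to 1.24 without single lists. Chosen after seeing the data were the tests of LSH1 against NIN without single lists, the gene-end difference over regions in at least 2 lists (-1.93 percentage points) and NIN density against bins up to 1 Mb away (-0.43 on the log2 scale).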

Other observations

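Genes other than coding ones were unevenly represented in dense bins. Of 971 snoRNA genes on the chromosomes 11 (1.13%) lay in a dense bin, of 2561 lncRNA genes 63 (2.46%) and of 1562 pseudogenes 40 (2.56%), against 4.03% of coding genes. Of 746 tRNA genes 36 (4.83%) and of 210 snRNA genes 12 (5.71%) did. None of 1407 rRNA genes did. Genes of these kinds can lie in arrays, so the counts are not independent, and the differences were not tested.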
